A study of Mus musculus with 10 samples.

Results

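Vwf, F8, Thbd, Procr, Tfpi and Plat are 6 genes of haemostasis, the balance between clotting and flow in blood vessels, and they are described here in the endothelial cells (ECs) of mouse long bone. The 6 were chosen by name, with earlier results of these data known, and make up 6 of the 26504 gene symbols counted over all libraries. Cells of femur and tibia came from C57BL/6 mice of the Cdh5-mTnG genotype, a reporter that labels ECs through the VE-cadherin promoter. The bones were digested with collagenase, lineage-positive blood cells were depleted, and cells positive for both GFP and tdTomato were sorted and read with the 10x Chromium 3′ method. The 5 groups were juvenile mice of 3 weeks (male and female together), adult females of 12 weeks, aged females of 75 weeks, and females of 12 weeks treated with parathyroid hormone (PTH), a hormone that drives bone formation, or with alendronate, an inhibitor of bone resorption. Each group had 2 libraries, which by the study's methods came from 1 pool of mice, so that every p-value below measures the spread between libraries and not between mice. All comparisons of groups share the same 2 adult libraries as controls.

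Endothelium keeps blood fluid and also holds the means to stop bleeding. Von Willebrand factor, the product of Vwf, is stored in Weibel-Palade bodies, captures platelets at a wound and carries coagulation factor VIII, the product of F8, in plasma. Thrombomodulin (Thbd) and the endothelial protein C receptor (Procr) sit on the cell surface, where thrombomodulin turns thrombin into an activator of the anticoagulant protein C and the receptor presents protein C to it. Tissue factor pathway inhibitor (Tfpi) blocks the first steps of coagulation, and tissue plasminogen activator (Plat) starts the breakdown of fibrin clots. Endothelium is the main known source of factor VIII, and the sinusoids of liver are its best-studied site.

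Of 47466 cell barcodes, 46283 passed the filter of 500 to 6000 genes and under 25% mitochondrial UMIs (unique molecular identifiers, 1 for each captured transcript), and 43424 were endothelial. Library totals ran from 10653583 to 28419323 UMIs and the median cell of a library from 3075 to 5149. The 2 aged libraries were the deepest per cell, and they alone held genes whose symbols begin with U, at 1.52% and 1.54% of their UMIs. Such a difference between libraries cannot be told apart from age. A total of 971 barcodes occurred in 2 or more libraries.

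Clusters of ECs were made without the 6 genes and without 41 other haemostasis genes, and were named by markers. The names mean only that a cluster carried the markers of that type. They were sinusoidal (15634 cells, Stab2 and Rgs4), metaphyseal (10410 cells, Ramp3 and Aplnr), arterial (6681 cells, Gja4 and Bmx) and proliferating (794 cells, Top2a). Type R, an endothelium that the study associates with remodelling bone, came as 2 clusters of its own, one led by Timp4 and Aqp7 (2849 cells) and one by Tagln, with Fmo2, and also Vwf, which was not used for the name, among its top genes (1880 cells). Another 5176 cells stayed without a name, of which 5125 were a cluster of low depth. The types were drawn from the same cells in which the 6 genes were then compared, so the tests between types describe these clusters. Summed over libraries, the Tagln/Fmo2 cells held few lymphatic transcripts (8.14 CPM, the count of a gene scaled to the same total of UMIs in every sum, over 5 markers, with Pdpn at 0) and more of mesenchymal and bone cells (194.5 CPM over 6 markers, with Runx2 at 0). They held 25.8 CPM of Timp4 and 40.8 CPM of Aqp7, against 1233 and 573 CPM in the Timp4/Aqp7 cells. Fmo2 stood at 380 against 285 CPM. Erythroid transcripts in the Tagln/Fmo2 cells ran from 23.6 CPM to 1592 CPM, the highest in juvenile replicate 1, which had only 27 such cells.

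Each of the 6 genes had its highest level in 1 type in every one of the 10 libraries. Tfpi, F8 and Thbd were highest in sinusoidal cells, Vwf and Procr in Tagln/Fmo2 cells and Plat in arterial cells. Levels are CPM of the summed cells of a type in a library, scaled by TMM factors, and differences are log2 fold changes between a type and the mean of the others from edgeR's quasi-likelihood test with the library as a block. A gene was called at a Benjamini-Hochberg adjusted p under 0.05 over 10816 genes and a log2 fold change over 1 in size. In sinusoidal cells 5 of the 6 genes were called, against 14.8% of all genes tested. The counts were 4 in Tagln/Fmo2 cells (10.5% of all genes), 3 in arterial cells (10.9%), 3 in Timp4/Aqp7 cells (14.1%), 3 in metaphyseal cells (6.39%) and 2 in proliferating cells (12%). Because the 6 genes were chosen with earlier results of these data known, these counts are a description.

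**Figure D1:**
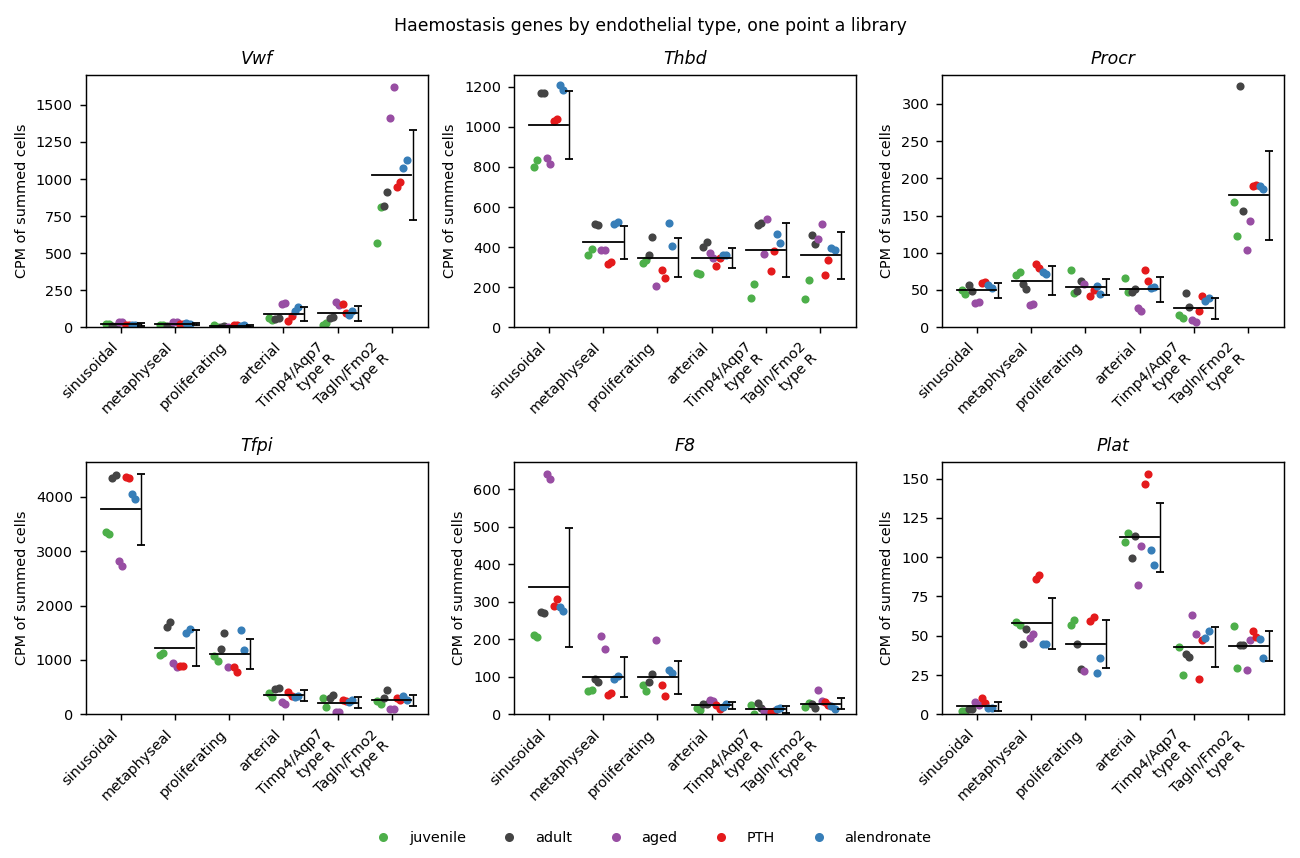
Level of each of the 6 genes (CPM of summed cells, y axis, a scale of its own in each panel) in 6 endothelial types (x axis), with 1 point for each library coloured by group, the mean as a horizontal line and the SD as an error bar. Vwf stood highest in Tagln/Fmo2 cells (mean 1028 CPM), Tfpi and F8 in sinusoidal cells (3768 and 339 CPM) and Plat in arterial cells (113 CPM).

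Vwf was the most restricted of the 6. In Tagln/Fmo2 cells its level ran from 571 CPM in a juvenile library over a median of 965 to 1624 CPM in an aged library (mean 1028 ± 304, SD, n = 10). In Timp4/Aqp7 cells it ran from 17.0 over 90.02 to 167 CPM, and in arterial cells from 41.4 over 69.7 to 163 CPM. No library of these or of any other type reached the lowest Tagln/Fmo2 library. The log2 fold change of Tagln/Fmo2 cells was 5.03 (SE 0.10, adjusted p = 1.09e-44). Timp4/Aqp7 and arterial cells, the next in order, did not differ from each other beyond their spread (log2 fold change of arterial against Timp4/Aqp7 cells -0.06, SE 0.17, adjusted p = 0.827).

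In the remaining types the pooled share of cells with Vwf was close to that of haematopoietic cells. After each cell was thinned to 1000 UMIs, 49.9% ± 7.06 (SD, n = 10 libraries) of Tagln/Fmo2 cells had a UMI of Vwf. Pooled over libraries, the share was 1.41% of sinusoidal, 1.77% of metaphyseal and 1.16% of proliferating cells, against 1.91% of haematopoietic cells (95% Clopper-Pearson interval 1.16% to 2.97%, which covers counting error only). The median cell before thinning had 4041 UMIs in the sinusoidal and 8418 in the haematopoietic cells. Those 3 pooled shares lay at or below that of the haematopoietic cells. In the aged libraries the share was 3.38% and 3.46% of sinusoidal cells, above the highest haematopoietic library (2.98%). Thinned to 2000 UMIs, the highest haematopoietic library (8.955%) lay above the highest sinusoidal library (6.091%), so this order depended on depth. The haematopoietic cells also held transcripts of 5 of 5 megakaryocyte and platelet markers, at 2223 CPM in sum, and megakaryocytes are known to make Vwf, so they are an imperfect reference for this gene. That sum was 1896 to 2130 CPM in adult and 134.5 to 291 CPM in aged libraries, so the reference changed with age. Since it also held more UMIs per cell, its share does not show how much free RNA sinusoidal cells held. Whether the 3 pooled shares or the aged sinusoidal share are background was not tested. Unthinned, the shares were 5.02% of sinusoidal and 9.96% of haematopoietic cells.

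F8 had the opposite pattern. In sinusoidal cells it ran from 205 CPM over a median of 281 to 642 CPM, with the 2 aged libraries above all others (mean 339 ± 159, SD, n = 10). Metaphyseal cells followed with 51.6 over 89.98 to 209 CPM, and proliferating cells with 50.04 over 85.8 to 199 CPM (n = 9). The sinusoidal level was higher than the metaphyseal one in each library, although the highest metaphyseal library, an aged one, lay just above the lowest sinusoidal library, a juvenile one. The log2 fold change of sinusoidal cells against the other types was 3.16 (SE 0.08, adjusted p = 4.88e-40). Metaphyseal and proliferating cells did not differ beyond their spread (-0.11, SE 0.14, adjusted p = 0.619), nor did arterial and Tagln/Fmo2 cells, at means of 24.1 and 28.5 CPM (adjusted p = 0.571). Timp4/Aqp7 cells had the lowest mean, 13.5 CPM. Their thinned share was 0.831% against 1.31% of haematopoietic cells (interval 0.698% to 2.23%), and whether it is background was not tested. The higher F8 of metaphyseal cells against the mean of the other types, at a log2 fold change of 1.01, lost its call without aged replicate 1 (0.97) or aged replicate 2 (0.93).

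Tfpi was found in nearly every sinusoidal cell, with a thinned share of 92.2% ± 4.40 (SD, n = 10). Its sinusoidal level ran from 2724 CPM over a median of 4008 to 4405 CPM. Metaphyseal cells had 879 over 1113 to 1705 CPM and proliferating cells 786 over 1069 to 1557 CPM (n = 9). Arterial, Tagln/Fmo2 and Timp4/Aqp7 cells had means of 347, 256 and 216 CPM. The lowest sinusoidal library thus lay above the highest library of every other type, and the log2 fold change was 3.06 (SE 0.09, adjusted p = 2.61e-37). The types fell into steps, with no difference beyond the spread between metaphyseal and proliferating cells (adjusted p = 0.226) or between the 2 kinds of type R cells (adjusted p = 0.0977). The pooled thinned share in Timp4/Aqp7 cells was 14.8%, the same as the 14.8% of haematopoietic cells (interval 12.6% to 17.1%). Single libraries ran from 3.32% to 31.25% in Timp4/Aqp7 and from 1.905% to 26.09% in haematopoietic cells. Whether the Timp4/Aqp7 share is background was not tested. The pooled share in Tagln/Fmo2 cells was 17.4%.

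Because Tfpi and F8 were both highest in sinusoidal cells, followed by metaphyseal and proliferating cells, their promoter windows are shown. Their order differed lower down, where arterial cells stood above Tagln/Fmo2 cells for Tfpi and below them for F8, a pair that did not differ beyond the spread for F8. Over the 59 sums of the cells of 1 type in 1 library, the 2 genes had a Pearson correlation of 0.945 on the log2 scale after the mean of each library was subtracted, which is a description, since the sums share libraries and cell types. In GENCODE vM21 (GRCm38) Tfpi lies at chr2:84432855-84476775 and F8 at chrX:75172715-75382615, both on the minus strand. F8 overlaps the pseudogenes Gm6039 and Gm8522 and the antisense gene Fundc2, and the strand setting of the counting is not given in the sources used here, so reads of these genes cannot be told apart there. The windows run from 250 bases before to 50 bases after the start that RefSeq gives (GRCm38.p6), chr2:84476710-84477009 for the first of 2 windows of Tfpi and chrX:75379992-75380291 for F8, and are printed 5′ to 3′ on the minus strand. The F8 window lies inside the GENCODE gene, which begins farther upstream, so the annotations differ in the start of F8. Capitals mark matches on either strand to the core bound by ETS factors (GGAAG) or the box bound by KLF factors (CACCC).
Tfpi: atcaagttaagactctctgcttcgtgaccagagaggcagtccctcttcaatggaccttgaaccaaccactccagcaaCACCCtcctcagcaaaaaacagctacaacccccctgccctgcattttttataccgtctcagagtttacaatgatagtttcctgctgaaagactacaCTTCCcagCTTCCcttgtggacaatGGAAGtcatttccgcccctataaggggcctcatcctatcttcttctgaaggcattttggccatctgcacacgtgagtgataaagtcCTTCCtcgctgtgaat
F8: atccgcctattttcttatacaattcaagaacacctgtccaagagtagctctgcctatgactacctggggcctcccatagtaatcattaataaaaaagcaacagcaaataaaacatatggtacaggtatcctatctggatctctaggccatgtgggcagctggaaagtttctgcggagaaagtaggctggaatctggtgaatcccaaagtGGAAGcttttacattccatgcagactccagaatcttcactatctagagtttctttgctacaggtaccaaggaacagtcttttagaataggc
The Tfpi window held 4 matches to the ETS core and 1 to the KLF box, and the F8 window held 1 and 0. The ETS core occurs in 71.4% and the KLF box in 57.5% of all 32851 windows of this length. The box bound by GATA factors (AGATAA), found in 11.2% of windows, was in neither of the windows shown, but the second Tfpi window, at chr2:84474125-84474424 and not shown, held 1 match to it, with 3 to the ETS core and 1 to the KLF box.

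Thbd was widespread, with a step up in sinusoidal cells. There it ran from 797 CPM over a median of 1032 to 1208 CPM, and the lowest of these libraries lay above the highest of any other type (541 CPM). The means of the other types lay between 345 CPM in arterial and 423 CPM in metaphyseal cells. The log2 fold change of sinusoidal cells was 1.43 (SE 0.07, adjusted p = 1.26e-27). The other types differed little, and of 15 pairs of types 7 were called for Thbd, 5 of which were those with sinusoidal cells. Thinned shares ran from 26.6% to 57.0% as means over libraries in ECs, against 6.34% pooled in haematopoietic cells (interval 4.90% to 8.04%).

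Procr was highest in Tagln/Fmo2 cells, with 104 CPM in an aged library, a median of 177 and 324 CPM in adult replicate 1. Its log2 fold change there was 1.95 (SE 0.10, adjusted p = 7.27e-26). Timp4/Aqp7 cells, the other kind of type R cells, had the lowest level in each of the 10 libraries, from 6.79 over 24.5 to 45.3 CPM (log2 fold change -1.24, SE 0.15, adjusted p = 2.24e-10). The 2 kinds of type R cells thus stood at opposite ends for Procr and differed by 2.66 on the log2 scale (SE 0.16, adjusted p = 2.02e-21). The types between them had means of 49.5 to 62.5 CPM.

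Plat was an arterial transcript with a low in sinusoidal cells. In arterial cells it ran from 82.4 CPM over a median of 108 to 153 CPM (log2 fold change 1.87, SE 0.08, adjusted p = 2.31e-29). In sinusoidal cells it ran from 2.31 over 3.99 to 10.5 CPM (log2 fold change -3.67, SE 0.12, adjusted p = 9.41e-36). The pooled share thinned to 1000 UMIs was 0.373% against 0.503% of haematopoietic cells, of which only 5 cells held Plat. Thinned to 2000 UMIs it was 0.721% against 0.231%. The order thus depended on depth, and whether sinusoidal Plat is background was not tested. The remaining types had means of 42.9 to 57.9 CPM, and only the pair of metaphyseal and Tagln/Fmo2 cells among their 6 pairs was called (log2 fold change 0.43, SE 0.14, adjusted p = 0.00817).

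**Figure D2:**
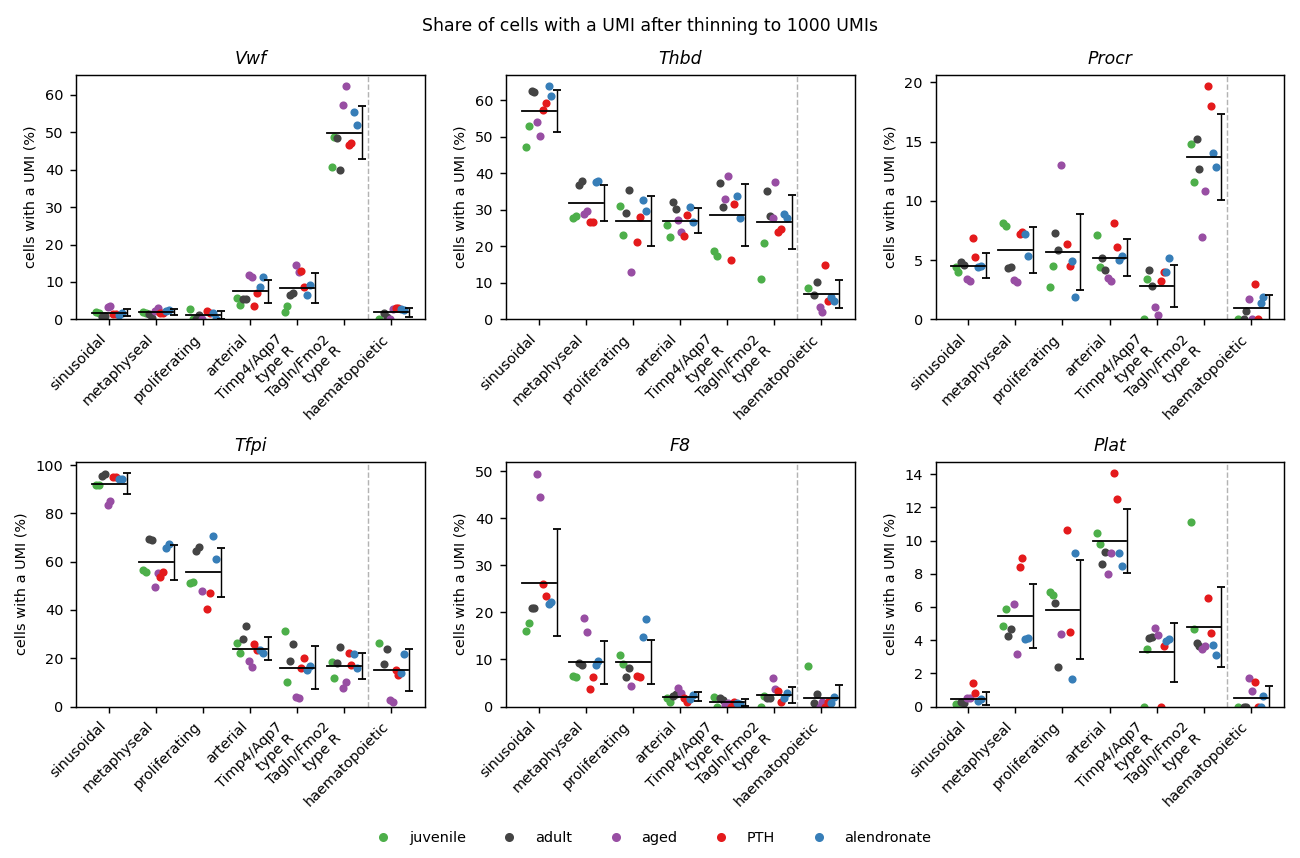
Share of cells with at least 1 UMI of each gene after thinning every cell to 1000 UMIs (y axis, percent), by endothelial type and, right of the dashed line, in haematopoietic cells; points are libraries, lines means and bars SDs. About 49.9% of Tagln/Fmo2 cells held Vwf and 92.2% of sinusoidal cells held Tfpi, while the mean shares of Vwf and Plat in sinusoidal cells were close to those of haematopoietic cells.

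Over all 90 pairs of types and genes, 65 differences had an adjusted p under 0.05. F8 and Tfpi separated the types most, with 13 of 15 pairs each, and Thbd least, with 7. Over all genes and the same pairs the share was 49.1%. The genes most like each of the 6 over the 59 sums, among 6707 genes, were Cd9 for Vwf (r = 0.93), 1700025G04Rik for Thbd (0.91), Mras for Procr (0.84), Abcc9 for Tfpi (0.97), Ralgapa2 for F8 (0.96) and Itgb1 for Plat (0.92).

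Of the other 41 haemostasis genes, 23 passed the filter between types, and they were counted by the threshold used for the 6 genes. In sinusoidal cells 4 were higher and 8 lower (14.8% of all genes were called), with a median log2 fold change of -0.11 against -0.02 over all genes. Mmrn1, a carrier of factor V, was up by 3.38 (SE 0.11) and Selp, the P-selectin of Weibel-Palade bodies, by 2.76 (SE 0.11). Among the Tagln/Fmo2 cells 9 of 23 were higher and 3 lower (10.5% of all genes), with a median of 0.32. Selp was up there by 2.19 (SE 0.15) and Hs3st1, an enzyme that makes anticoagulant heparan sulphate, by 1.88 (SE 0.10). Timp4/Aqp7 cells had 3 higher and 7 lower (14.1% of all genes, median -0.45), among them Selp (-2.83, SE 0.28) and Cd63, another Weibel-Palade protein (-2.59, SE 0.16). Arterial cells had 4 higher and 8 lower (10.9% of all genes, median -0.30), among them Tfpi2, a relative of Tfpi (-1.64, SE 0.15). Metaphyseal cells had 3 higher and 2 lower (6.39% of all genes), with Tfpi2 up by 1.96 (SE 0.09), and proliferating cells had 4 higher and 3 lower (12% of all genes), also with Tfpi2 up, by 2.16 (SE 0.14).

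Comparisons between groups were made within each type, in 1 fit of all groups per type, and a gene was called at an adjusted p under 0.05 over all genes. Vwf passed the filter on low counts in 5 of 6 types, not in proliferating cells, so that 35 tests were made per comparison. The numbers called were 16 in juvenile, 28 in aged, 17 in PTH-treated and 8 in alendronate-treated mice. By type, the share of all genes called ran from 1.77% to 37.8% in juvenile and from 20.1% to 65.1% in aged mice. It ran from 0.676% to 17.5% in PTH-treated and from 1.07% to 17.8% in alendronate-treated mice.

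**Figure D3:**
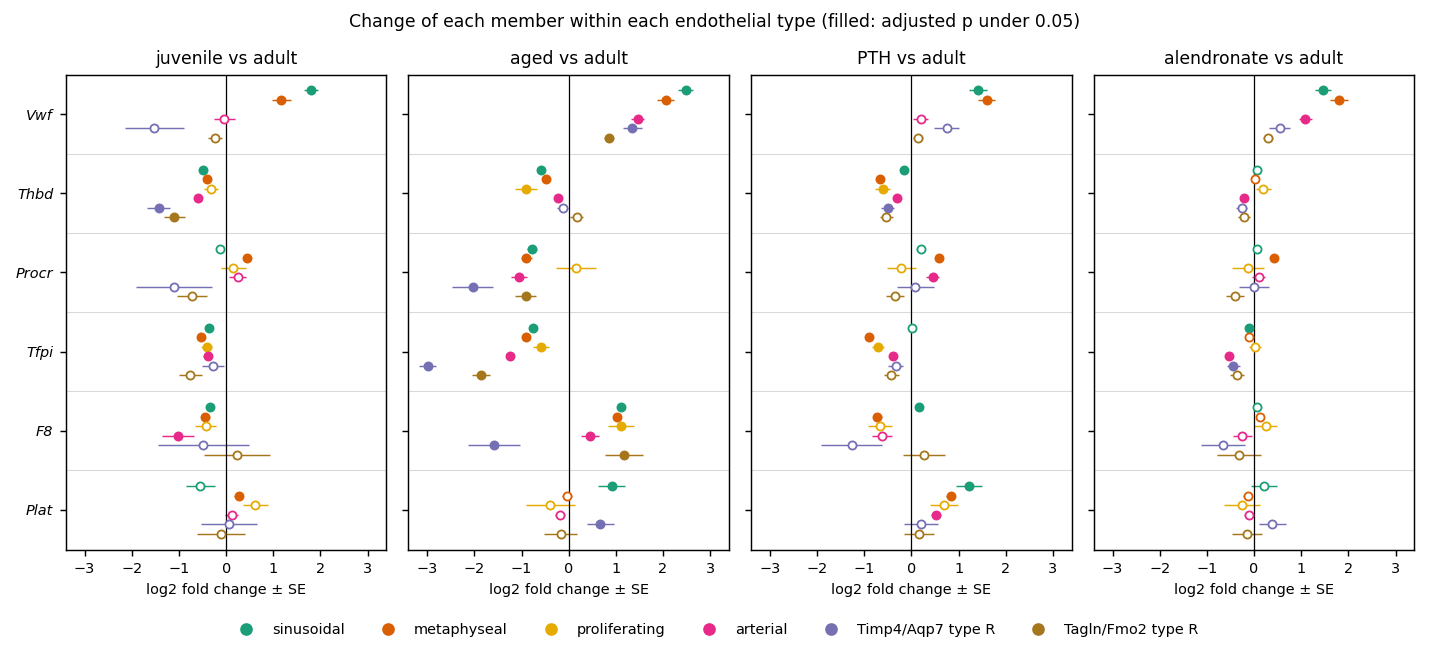
Log2 fold change of each gene against adult mice (x axis, bars are SE) within each of 6 types (colours), in 4 panels for juvenile, aged, PTH-treated and alendronate-treated mice; filled points had an adjusted p under 0.05. In the aged panel all 6 points of Tfpi lay left of 0 and all 5 of Vwf right of 0.

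In aged mice Vwf was higher in each of the 5 types tested and Tfpi lower in each of 6. F8 was higher in 5 types and lower in 1, Procr was lower in 5, Thbd lower in 4 and Plat higher in 2. The calls were 6 of 6 genes in sinusoidal cells, where 65.1% of all genes were called, 5 in metaphyseal (63.5%), 5 in arterial (58.5%), 5 in Timp4/Aqp7 (47.3%), 4 in Tagln/Fmo2 (31.9%) and 3 of 5 in proliferating cells (20.1%, with a single aged library of 23 cells). With so many genes called, these counts are no result about the 6 genes.

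Vwf in arterial cells was 53.7 and 62.2 CPM in the adult libraries and 157 and 161 CPM in the aged ones, a log2 fold change of 1.47 (SE 0.14, adjusted p = 4.49e-12). In Tagln/Fmo2 cells, where it is highest, it went from 812 and 897 CPM to 1428 and 1644 CPM (0.85, SE 0.11, adjusted p = 3.93e-07). In both types each aged library lay above each adult library. The summed level of the 6 mesenchymal and bone markers in Tagln/Fmo2 cells was higher too, at 120.2 to 124.7 plain CPM (without scaling factors) in adult and 249 to 257 in aged libraries, and its part in the change of Vwf was not tested. In Timp4/Aqp7 cells it was 62.9 and 65.0 CPM in adult and 172 and 154 CPM in aged libraries (1.35, SE 0.21, adjusted p = 2.20e-08). In sinusoidal cells it was 5.10 and 6.22 CPM in adult and 30.9 and 32.5 CPM in aged libraries (2.48, SE 0.16). The 7 type R markers, all above 0 in sinusoidal cells, summed there to 49.6 to 52.5 plain CPM in adult, 200.5 to 203 in aged, 85.9 to 91.3 in PTH-treated, 77.8 to 94.8 in alendronate-treated and 29.6 to 32.6 in juvenile libraries. They were thus higher where Vwf was higher in aged and treated mice, and lower in juvenile mice, where Vwf was higher too. Haematopoietic cells had 17.2 and 5.51 plain CPM of Vwf in adult and 7.55 and 29.0 in aged libraries, so their 2 groups overlapped. In the same plain CPM the aged libraries had 38.5 and 40.4 in sinusoidal and 37.5 and 36.6 in metaphyseal cells, above both haematopoietic values. These haematopoietic cells differed in make-up, with their markers at 12620 to 13050 CPM in adult and 171100 to 188100 CPM in aged libraries. The part of free RNA in the aged values was not tested. The call in Tagln/Fmo2 cells was lost where a gate on markers replaced the clusters (0.34).

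Tfpi in sinusoidal cells was 4098 and 4154 CPM in adult and 2492 and 2381 CPM in aged libraries (-0.76, SE 0.03, adjusted p = 1.99e-23). In arterial cells it was 466 and 493 CPM in adult and 216 and 187 CPM in aged libraries (-1.25, SE 0.08, adjusted p = 3.06e-16). The aged libraries lay below the adult ones in both types, but the arterial direction turned to 0.36 when libraries were clustered without integration. In Timp4/Aqp7 cells it went from 290 and 344 CPM to 39.6 and 39.9 CPM (-2.99, SE 0.18, adjusted p = 6.37e-31), the largest change of the 6 genes in aged mice. Haematopoietic cells had 204 and 309 plain CPM in adult and 32.3 and 21.1 in aged libraries. They differed in make-up between these groups, with haematopoietic markers at 12620 to 13050 CPM in adult and 171100 to 188100 CPM in aged libraries. The part of free RNA in the Timp4/Aqp7 value was not tested. The sum of the 8 sinusoidal markers, all above 0 in each of these types, was lower in aged mice too, at 264 to 307 against 568 to 655 plain CPM in arterial and 210.4 to 265 against 413 to 456 in Timp4/Aqp7 cells. In sinusoidal cells themselves it was higher, at 7912 to 7975 against 6202 to 6307. The sum of the metaphyseal markers was lower in aged mice as well, at 98.2 to 103 against 252 to 257 plain CPM in arterial cells. In Timp4/Aqp7 cells it was 324 to 326 against 1089 to 1272. The part of sinusoidal or metaphyseal transcripts in the arterial and Timp4/Aqp7 changes of Tfpi was not tested.

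F8 in sinusoidal cells was 259 and 256 CPM in adult and 566 and 548 CPM in aged libraries (1.11, SE 0.04, adjusted p = 5.46e-23). In metaphyseal cells it was 97.3 and 88.2 CPM in adult and 207 and 172 CPM in aged libraries (1.03, SE 0.08, adjusted p = 3.28e-14). F8 and Tfpi, both highest in sinusoidal cells, thus moved in opposite directions within both of these types. F8 also rose in arterial (0.45) and Tagln/Fmo2 cells (1.17) and fell in Timp4/Aqp7 cells (-1.58), at adjusted p of 0.0407, 0.0275 and 0.0127, the last in a type whose pooled share of cells with F8 was below that of haematopoietic cells. Without 1 of the libraries these 3 calls were lost, for example without adult replicate 1 (0.41, 1.48 and -1.13).

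Of the protein C genes, Procr in metaphyseal cells was 59.5 and 53.1 CPM in adult and 30.1 and 30.4 CPM in aged libraries (-0.90, SE 0.11, adjusted p = 3.82e-09). In arterial cells it was 47.6 and 51.9 CPM in adult and 26.2 and 21.4 CPM in aged libraries (-1.06, SE 0.16, adjusted p = 5.16e-07). In Tagln/Fmo2 cells, adult replicate 1 with 320 CPM stood apart from adult replicate 2 with 154 CPM, and the aged libraries had 105 and 145 CPM (-0.92, SE 0.22, adjusted p = 0.00136). Without adult replicate 1 the difference was -0.31 and was not called. Thbd in sinusoidal cells was 1106 and 1101 CPM in adult and 745 and 714 CPM in aged libraries (-0.60, SE 0.04, adjusted p = 2.43e-17), whereas in Tagln/Fmo2 cells it was 457 and 408 CPM in adult and 446 and 524 CPM in aged libraries (0.17, SE 0.14, adjusted p = 0.363).

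Plat had the fewest calls with age, 2 of 6 types. In arterial cells, where it is highest, it was 100 and 115 CPM in adult and 81.7 and 106 CPM in aged libraries, which overlapped (-0.19, SE 0.11, adjusted p = 0.135). It was called in sinusoidal cells, where its pooled share was below or above that of haematopoietic cells, depending on the depth of thinning. Its aged level in sinusoidal cells (8.86 and 6.64 plain CPM) was above that of haematopoietic cells (4.12 and 3.63). It was also called in Timp4/Aqp7 cells (0.67, SE 0.28, adjusted p = 0.0412). Levels there were 38.2 and 36.1 CPM in adult and 65.4 and 52.8 CPM in aged libraries. Both calls were lost without aged replicate 1 (0.68 and 0.51).

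**Figure D4:**
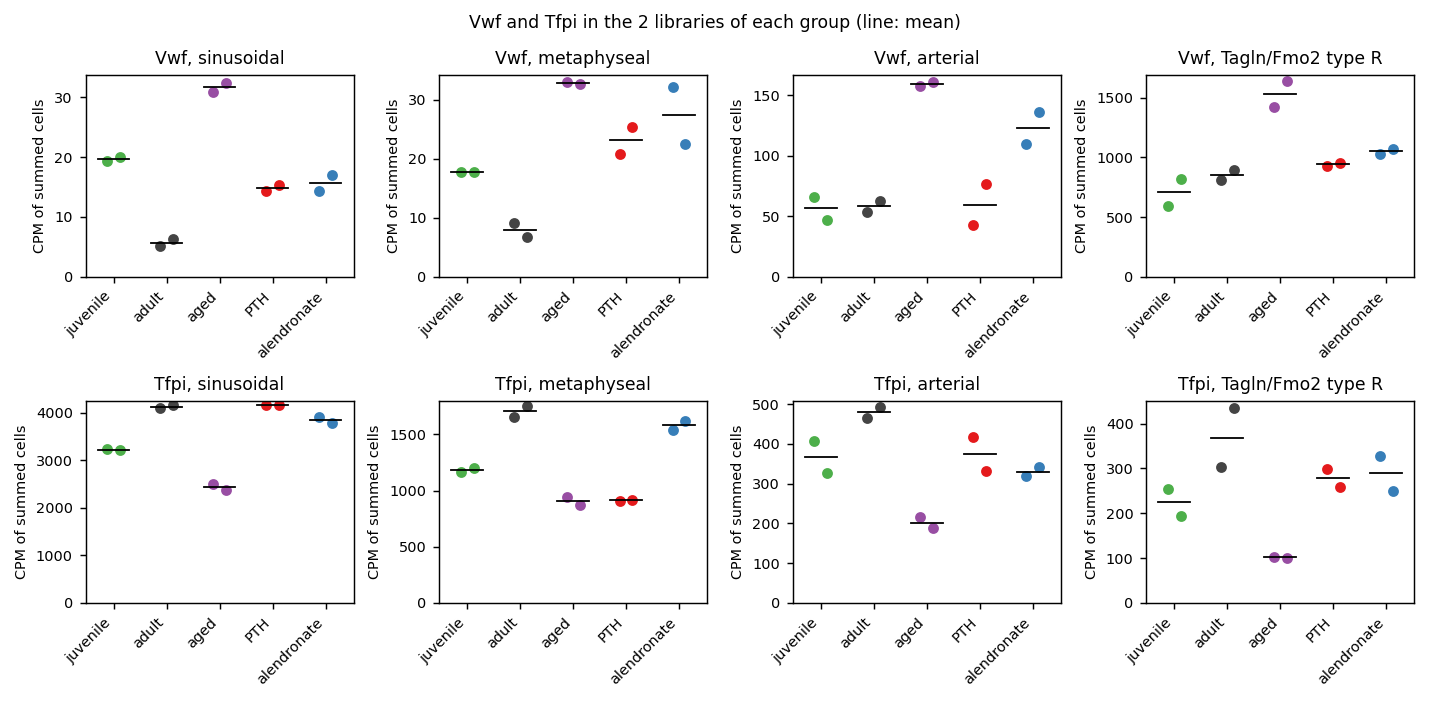
Vwf (upper row) and Tfpi (lower row) in the 2 libraries of each group (points, with a line at the mean) in 4 endothelial types, in CPM of summed cells. Aged libraries had the highest Vwf in all 4 types shown and the lowest Tfpi in sinusoidal, arterial and Tagln/Fmo2 cells, while in metaphyseal cells the PTH-treated libraries (910 and 919 CPM) lay among the aged ones (941 and 871 CPM).

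In juvenile mice Thbd was lower in 5 types, Tfpi in 4 and F8 in 3, Vwf was higher in 2, and Procr and Plat were higher in 1 each. The calls were 4 of 6 genes in sinusoidal cells (37.8% of all genes), 6 in metaphyseal (28.8%), 3 in arterial (13.9%), 1 in Timp4/Aqp7 (3.46%), 1 in Tagln/Fmo2 (1.77%) and 1 of 5 in proliferating cells (4.21%). The juvenile pool held both sexes and the adult pool females only, so age and sex cannot be told apart for any of the 6 genes.

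Thbd in sinusoidal cells was 769 and 807 CPM in juvenile and 1106 and 1101 CPM in adult libraries (-0.49, SE 0.03, adjusted p = 1.57e-14). In Timp4/Aqp7 cells it was 155 and 241 CPM in juvenile and 508 and 513 CPM in adult libraries (-1.43, SE 0.24, adjusted p = 7.09e-06), on 48 and 30 juvenile cells. In Tagln/Fmo2 cells it was 146 and 236 CPM in juvenile and 457 and 408 CPM in adult libraries (-1.10, SE 0.22, adjusted p = 0.00347), on 27 and 43 juvenile cells, and the call was lost without juvenile replicate 1 (-0.89). The juvenile libraries lay below the adult ones in all 3 types.

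Tfpi in metaphyseal cells was 1162 and 1201 CPM in juvenile and 1658 and 1755 CPM in adult libraries (-0.53, SE 0.04, adjusted p = 2.62e-12). F8 in sinusoidal cells was 205 and 199 CPM in juvenile and 259 and 256 CPM in adult libraries (-0.35, SE 0.05, adjusted p = 4.74e-08). Procr in metaphyseal cells was 74.5 and 78.8 CPM in juvenile and 59.5 and 53.1 CPM in adult libraries (0.44, SE 0.09, adjusted p = 1.32e-04). The 2 groups did not overlap in any of these 3. The arterial call of F8 (-1.02) was lost without any of the 4 libraries compared, and so was that of Plat in metaphyseal cells (0.27) without 3 of them.

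Vwf was called in juvenile mice in sinusoidal and metaphyseal cells, types whose pooled share was at or below that of haematopoietic cells. In sinusoidal cells it was 19.3 and 20.02 CPM in juvenile against 5.10 and 6.22 CPM in adult libraries (1.80, SE 0.15, adjusted p = 2.58e-12), and in metaphyseal cells 17.8 and 17.8 CPM against 9.01 and 6.69 CPM (1.17, SE 0.21, adjusted p = 1.98e-05). The sum of 5 megakaryocyte and platelet markers, all above 0, moved in the same direction in sinusoidal cells, from 80.3 to 94.5 CPM in adult to 199 to 219 CPM in juvenile libraries. In aged mice, where Vwf was higher too, the sum was lower, at 31.1 to 40.95 CPM. It was 80.9 to 92.5 CPM in PTH-treated and 148 to 167 CPM in alendronate-treated libraries. After cells with a UMI of these markers were removed, the sinusoidal change of Vwf in juvenile mice was 1.76 and still called. This removal leaves cells that hold free RNA of Vwf without a marker UMI, so the part of platelet RNA was not tested by it. In the marker gate the metaphyseal change turned to -0.34.

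PTH treatment moved all 6 genes in metaphyseal cells, where 17.5% of all genes were called. The other counts were 4 of 6 in sinusoidal (9.04%), 4 in arterial (8.28%), 1 in Timp4/Aqp7 (2.68%), 0 in Tagln/Fmo2 (0.676%) and 2 of 5 in proliferating cells (2.16%). For the Tagln/Fmo2 cells 2 genes had an unadjusted p under 0.05 in edgeR, and DESeq2's Wald test called 0 of the 4 it gave an adjusted p. Thbd was lower in 5 types, Tfpi in 3, Plat was higher in 3, and Procr and Vwf were higher in 2 each. F8 was higher in sinusoidal and lower in metaphyseal cells.

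In metaphyseal cells Tfpi was 910 and 919 CPM in PTH-treated and 1658 and 1755 CPM in adult libraries (-0.90, SE 0.05, adjusted p = 3.35e-18). Thbd was 328 and 337 CPM against 532 and 526 CPM (-0.67, SE 0.05, adjusted p = 1.63e-13), and F8 was 53.2 and 58.0 CPM against 97.3 and 88.2 CPM (-0.72, SE 0.09, adjusted p = 4.42e-08). In each of these 3 the treated libraries lay below the adult ones. Plat was 89.0 and 91.4 CPM against 46.4 and 55.7 CPM (0.83, SE 0.09, adjusted p = 1.66e-09) and Procr was 88.2 and 81.8 CPM against 59.5 and 53.1 CPM (0.58, SE 0.08, adjusted p = 1.62e-06). For both the treated libraries lay above the adult ones. Where a gate on markers replaced the clusters, F8 (-0.23), Thbd (-0.23), Plat (0.29) and Vwf (0.68) were no longer called, so these 4 depend on which cells count as metaphyseal. The sum of the 8 sinusoidal markers in metaphyseal cells was 723 to 764 plain CPM in PTH-treated against 1546 in both adult libraries, and that of the 5 metaphyseal markers was 2715 to 2773 against 1538 to 1615, with all markers of both lists above 0. The sinusoidal markers were thus lower beside Tfpi, Thbd and F8, which are also higher in sinusoidal than in metaphyseal cells, and their part in these changes was not tested.

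Outside metaphyseal cells, Plat in arterial cells was 150.2 and 155 CPM in PTH-treated and 100 and 115 CPM in adult libraries (0.52, SE 0.10, adjusted p = 2.16e-04), with no overlap. The 5 metaphyseal markers in arterial cells summed to 481 to 499 plain CPM against 252 to 257, and their part in the change of Plat was not tested. Tfpi in sinusoidal cells, its main site, was 4158 and 4156 CPM against 4098 and 4154 CPM (0.01, SE 0.03, adjusted p = 0.893). Thbd in sinusoidal cells was 982 and 991 CPM against 1106 and 1101 CPM (-0.16, SE 0.04, adjusted p = 0.00148). The rise of F8 in sinusoidal cells (0.16, adjusted p = 0.0291) was lost without adult replicate 1, adult replicate 2 or PTH replicate 2 (0.16, 0.15 and 0.09), and that of Procr in arterial cells (0.45) without either adult library or PTH replicate 1.

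Alendronate treatment changed the fewest tests. The counts were 3 of 6 genes in arterial cells (7.91% of all genes), 2 in sinusoidal (17.8%), 2 in metaphyseal (13.2%), 1 in Timp4/Aqp7 (2.8%), 0 in Tagln/Fmo2 (1.07%) and 0 of 5 in proliferating cells (1.15%). In the last 2 types, 3 and 0 genes had an unadjusted p under 0.05 in edgeR, and DESeq2 called 0 of the 4 and 0 of the 3 genes to which it gave an adjusted p.

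Vwf in arterial cells was 110 and 136 CPM in alendronate-treated and 53.7 and 62.2 CPM in adult libraries (1.09, SE 0.14, adjusted p = 4.08e-07). In Tagln/Fmo2 cells it was 1027 and 1074 CPM against 812 and 897 CPM (0.30, SE 0.11, adjusted p = 0.263). In both types the treated libraries lay above the adult ones, but the latter difference was not called. Tfpi in arterial cells was 318 and 341 CPM against 466 and 493 CPM (-0.54, SE 0.08, adjusted p = 3.72e-06), and Procr in metaphyseal cells was 76.6 and 74.6 CPM against 59.5 and 53.1 CPM (0.42, SE 0.09, adjusted p = 7.83e-04). In arterial cells of alendronate-treated mice the sinusoidal markers summed to 377.1 to 450.0 plain CPM against 568 to 655 in adult mice, beside the lower Tfpi, and the type R markers to 1157 to 1173 against 914 to 955, beside the higher Vwf. The part of either list in these changes was not tested. In metaphyseal cells the 7 type R markers, all above 0, summed to 369 to 382 plain CPM in alendronate-treated and 374 to 376 in PTH-treated against 275 to 294 in adult libraries, beside the higher Procr of both treatments, and their part in it was not tested. They summed to 372 to 395 in aged libraries, where Procr was lower. The metaphyseal call of Procr was lost when cells with a platelet UMI were removed (0.28). The calls of Tfpi in sinusoidal (-0.10) and Timp4/Aqp7 cells (-0.44) and of Thbd in arterial cells (-0.21) were lost without adult replicate 2 (-0.09, -0.30 and -0.16).

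Vwf in sinusoidal and metaphyseal cells was also called in both treatments. In sinusoidal cells it was 14.3 to 17.0 CPM in treated against 5.10 and 6.22 CPM in adult libraries. In metaphyseal cells it was 20.8 and 25.35 CPM in PTH-treated and 32.1 and 22.6 CPM in alendronate-treated libraries. The adult metaphyseal libraries had 9.01 and 6.69 CPM. Haematopoietic cells had 29.4 to 34.4 plain CPM of Vwf in PTH-treated and 21.9 to 23.5 in alendronate-treated libraries. The share of Tagln/Fmo2 cells, which hold the most Vwf, was 0.669% and 1.14% of ECs in juvenile, 2.09% and 2.17% in adult, 5.21% and 6.02% in aged, 6.06% and 6.03% in PTH-treated and 6.46% and 7.25% in alendronate-treated libraries. The part of free RNA of these cells in the change of other types was not tested.

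Among the other haemostasis genes in aged mice, Cd63 was lower in sinusoidal (-1.31), metaphyseal (-1.47), arterial (-1.40), Timp4/Aqp7 (-2.82) and Tagln/Fmo2 cells (-2.002), with SE of 0.04 to 0.36. Of the 22 tested in arterial cells, 3 were higher and 13 lower in aged mice (median -0.48 against -0.03 over all genes), where 58.5% of all genes were called. In metaphyseal cells 3 of 22 were higher and 11 lower, where 63.5% of all genes were called, a share near that of the list. In metaphyseal cells of PTH-treated mice 6 of 22 were higher and 4 lower (17.5% of all genes), among them Selp (-1.13, SE 0.08) and Mmrn1 (-0.86, SE 0.13) and the thrombin receptor F2rl3 (0.68, SE 0.09).

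Whether an effect differed between a type and sinusoidal cells was tested in 1 fit of all types with the library as a block. Of 30 such tests for each group, 5 were called in juvenile mice (3.36% over all genes), 13 in aged (9.24%), 8 in PTH-treated (1.67%) and 2 in alendronate-treated mice (0.815%). Leaving out 1 library took these counts as low as 3, 8, 4 and 0, without juvenile replicate 1 or 2, adult replicate 1, adult replicate 1 or PTH replicate 2, and adult replicate 1. The effects of PTH in metaphyseal cells differed from those in sinusoidal cells for 3 of the 6 genes, against 4.41% of all genes. The difference of log2 fold changes was -0.89 for Tfpi (SE 0.09, adjusted p = 4.17e-13), -0.86 for F8 (SE 0.11, adjusted p = 2.31e-08) and -0.49 for Thbd (SE 0.09, adjusted p = 4.75e-05). In the marker gate the differences of F8 (-0.34) and Thbd (-0.03) were not called.

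In all ECs of a library together, fewer cells of a type and less RNA per cell cannot be told apart. Vwf was 29.95 and 34.0 CPM in adult, 128 and 145 CPM in aged, 78.4 and 87.8 CPM in PTH-treated and 106 and 125 CPM in alendronate-treated libraries, with log2 fold changes of 2.09, 1.39 and 1.86 (SE 0.09 each). Tfpi was 2739 and 2865 CPM in adult and 1066 and 1011 CPM in aged libraries (-1.43, SE 0.04). Sinusoidal cells made up 44.2% and 44.6% of the adult and 17.2% and 17.5% of the aged ECs. The genes called were 6 of 6 in aged (73.7% of all genes), 6 in PTH-treated (29%), 5 in alendronate-treated (27.3%) and 3 in juvenile mice (42.6%).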

How the data were processed

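Cells of 10 libraries, 2 for each of 5 groups, were analysed from the UMI count tables that the authors deposited, 1 for each library. According to the study's methods and the submitters' processing notes, the authors extracted barcodes and UMIs with UMI-tools 1.1.2, aligned reads to mm10 with STAR 2.7.10a and counted genes with featureCounts 2.0.3. The annotation release and the strand setting are not given in the sources used here. Symbols beginning with U were left out.

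Cells with 500 to 6000 genes and under 25% mitochondrial UMIs were first clustered together without integration. Clusters were kept as endothelial by their level of markers shared by ECs (Cdh5, Pecam1, Kdr, Emcn and Tie1). The cells kept were integrated by library with Seurat 5.3.0 (2000 variable features, 30 principal components, resolution 0.5). A cluster was named when at least 3 markers of a type were up by 0.5 (log2, pseudocount 10 CPM) with a score of at least 0.3 and a lead of 0.3 over the next type. A cluster of under 0.5 times its libraries' median UMIs with no marker among its 10 leading genes stayed unnamed, a rule chosen after seeing the data. Doublets were kept, and removing the 1954 cells with the highest scores (scanpy 1.11.5) was an alternative. The 6 genes and the lists were chosen with earlier results of these data known.

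Counts were summed for each type and library with at least 20 cells, so the 18 proliferating cells of aged replicate 2 gave no value. The sums were tested with edgeR 4.0.16 (R 4.3.3; TMM, filterByExpr, quasi-likelihood test, Benjamini-Hochberg adjustment over all genes), with the library as a block between types. Every group fit held all 5 groups. Other haemostasis genes were named when called, at a mean of at least 20 CPM and in 1 direction in all libraries, up to 3 for each comparison by size. One gene that this rule names is not reported here. The most alike genes were found by Pearson correlation of log2(CPM + 1) after subtracting library means. Promoter windows were those of RefSeq, which held 3 of the 6 genes in the table used. Tests were run on simulated counts with the real means and a fixed dispersion that was not estimated from these data. The percentages recovered apply to that spread and not to the spread of the fits reported here. For arterial cells of PTH-treated against adult mice (11071 genes), 21% of changes of 1 and 92% of changes of 2 (log2) were recovered, and between arterial and the other types (10285 genes) 95.9% and 100%. For the difference of the PTH effect between arterial and sinusoidal cells (10288 genes) 8.42% and 49% were recovered. Library totals of 10653583 to 28419323 UMIs set the precision, and intervals are 95% Clopper-Pearson. Alternatives were DESeq2 1.42.0 (size factors, Wald test), a gate on markers in place of clusters, no filter, only the groups compared, only treatment libraries, resolutions of 0.3 and 0.8, no integration, a stricter cell filter (1000 to 5000 genes, under 10% mitochondrial), at least 50 cells, other thinning, a replicate block and leaving out each library. Naming the low-depth cluster and removing cells with platelet UMIs were added after seeing the data. Same-numbered libraries did not deviate together (66 correlations, -0.0298 to 0.0814).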

Additional observations from a re-analysis of the deposited data

Results flagged for a closer look

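Effects of a group that differed from those in sinusoidal cells, by a term for the difference in 1 fit of the types (edgeR, adjusted p under 0.05), are given as differences of log2 fold changes. Vwf differed most often. In juvenile mice its effect was lower by -1.83 in arterial, -3.42 in Timp4/Aqp7 and -2.03 in Tagln/Fmo2 cells, and in aged mice by -1.10, -1.28 and -1.77 in the same types. Under PTH it was -1.21 in arterial and -1.21 in Tagln/Fmo2 cells, and under alendronate -1.09 in Tagln/Fmo2 cells. Sinusoidal Vwf, the reference of all 9, was low in adult libraries (5.10 and 6.22 CPM). In aged libraries (30.9 and 32.5 CPM) it lay above the level of haematopoietic cells, whose make-up differed with age.

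Tfpi differed in aged mice by -0.57 in arterial, -2.39 in Timp4/Aqp7 and -1.24 in Tagln/Fmo2 cells. Under PTH its differences were -0.89 in metaphyseal, -0.39 in arterial and -0.70 in proliferating cells, and under alendronate -0.40 in arterial cells. F8 differed in aged mice by -0.75 in arterial and -2.87 in Timp4/Aqp7 cells, where its pooled share of cells was below that of haematopoietic cells, and under PTH by -0.86 in metaphyseal and -0.79 in arterial cells.

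Thbd differed by 0.29 in arterial and 0.62 in Tagln/Fmo2 cells of aged mice, by -1.04 in Timp4/Aqp7 cells of juvenile mice and by -0.49 in metaphyseal cells under PTH. Procr differed by 0.57 in metaphyseal cells of juvenile mice and by -1.44 in Timp4/Aqp7 cells of aged mice. Plat differed in aged mice by -0.99 in metaphyseal and -1.17 in arterial cells, although its own changes there, -0.04 and -0.19, were not called. The differences rest on sinusoidal Plat, at 3.13 and 3.48 CPM in adult and 7.11 and 5.33 CPM in aged libraries. The pooled share of sinusoidal cells with Plat was below or above that of haematopoietic cells, depending on the depth of thinning. The sinusoidal change of Plat lost its call without aged replicate 1 (0.68), in the marker gate (0.26) and without integration (0.015). Without aged replicate 1 the differences themselves, -0.75 and -0.78, lost their calls.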

How the results depend on the processing

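Under other settings, 469 of 492 values of a type against the others kept direction and call, as did 1145 of 1200 between pairs of types, 1932 of 2032 between groups and 187 of 210 differences from sinusoidal cells. Directions turned between sinusoidal and metaphyseal cells for Vwf (0.38 at resolution 0.8, 0.50 without integration), and for Thbd between metaphyseal and arterial (-0.11 in the marker gate, -0.0080 without integration), Timp4/Aqp7 (-0.38, gate) and proliferating cells (-0.0387, no integration). In the groups they turned for Plat in juvenile sinusoidal cells (0.90) and Tfpi in aged arterial cells (0.36) without integration, and in the gate for Vwf in juvenile metaphyseal cells (-0.34) and for its PTH difference from sinusoidal cells there (-1.30). The causes were not tested.

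The members called fell to 1 in metaphyseal cells at resolution 0.8 or with treatment libraries only, to 1 in arterial cells in the gate and to 1 in proliferating cells without platelet-UMI cells. Tests called fell to 15 in aged mice without integration (18 tests in 3 types, since a cluster led by Tagln stayed unnamed with a lymphatic score of 2.08 beside 2.02 for type R, and metaphyseal and proliferating cells gave no value), to 11 under PTH in the gate (28 tests), and to 5 under alendronate with DESeq2's Wald test or without platelet-UMI cells. Leaving out 1 library gave 5 to 8 under alendronate (5 without alendronate replicate 2) and 3 to 5 in all endothelial cells (3 without adult replicate 2). Differences from sinusoidal cells numbered 3 to 5 in juvenile, 8 to 13 in aged, 4 to 8 in PTH-treated and 0 to 2 in alendronate-treated mice.

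Shares of cells rose with depth, at 2000 UMIs and unthinned, to 59.5% and 70.7% for Vwf and 23.9% and 36.8% for Procr in Tagln/Fmo2 cells, to 77.5% and 91.6% for Thbd, 98.0% and 99.4% for Tfpi and 44.1% and 65.3% for F8 in sinusoidal cells, and to 19.3% and 29.1% for Plat in arterial cells. The replicate block changed 1 call, Vwf in all endothelial cells of juvenile mice (-0.19, adjusted p = 0.0206 against 0.149). DESeq2 gave no adjusted p for 20 values.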
